A study of Homo sapiens with 12 samples.

Results

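The RNA of MDA-MB-231 cells that had passed through capillary-sized constrictions was compared with that of MDA-MB-231 cells that had not. MDA-MB-231 is an established triple negative breast cancer cell line of mesenchymal type. The genes described are all 381 genes of the table that the authors deposited for this cell line, of 3090 genes listed in any of the 3 tables of the series. A gene is in the table when the authors' own comparison gave it an unadjusted p-value under 0.05, and the largest such value was 0.0497. The genes were therefore selected on the same 4 libraries that are described, and every test below is a description of these genes and no independent evidence. Genes outside the table were not analysed here.

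The constriction group (2 libraries, replicates 1 and 2) holds cells driven at hydrostatic pressures of 7 to 33 cmH2O through microchannels 5 µm wide and high and 150 µm long, and collected after transit. The control group (2 libraries, replicates 1 and 2) holds cells of the same line that did not pass a constriction. The labels name no edited gene and no drug in either group. Cells from many devices were pooled for each constriction library, and the study's listing of the experiments gives fewer cells and much less RNA for each constriction sample than for its control, so the amount of starting RNA and the transit cannot be told apart. The remaining 8 libraries of the series come from LM2, a metastatic line derived from MDA-MB-231, and from MCF-10A, a non-malignant breast epithelial line.

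A cell that squeezes through a channel narrower than its nucleus deforms the nucleus and its lamina, and the nuclear envelope can rupture and be resealed. The nucleus is tied to the cytoskeleton by nesprins, large proteins of the outer nuclear membrane that bind actin, microtubule motors or plectin. Chromatin compaction, set in part by histone methylation and by linker histones, contributes to nuclear stiffness. Mechanical and handling stress can switch on immediate early genes within minutes, and DNA that reaches the cytoplasm can be sensed by cGAS and STING, which lead to NF-κB and interferon targets. RNA was captured by its poly A tail, so RNAs without such a tail, such as 7SL RNA, most histone mRNAs and tRNAs, are counted only as far as they were carried through that step.

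The libraries held 37214886 to 53584754 reads, and the listed genes took 1.15% to 1.68% of them. The shallowest library was control replicate 1, in which 88 listed genes had 0 reads, and the other libraries had 33 to 68 such genes. Normalised counts are reads over a size factor given to each library, which ran from 0.788205 to 1.162663. A count of 0 allows up to 3 reads, or a normalised count of 2.58 to 3.81. Such limits cover counting error only. In bulk RNA, fewer cells that express a gene and less RNA per cell cannot be told apart. None of the 15 genes taken as markers of MDA-MB-231 identity is in the table, so the identity of the cells could not be checked here.

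Transited cells had the higher mean normalised count in 254 of the 381 genes (66.7%) and the lower one in 127. The groups did not overlap for 360 genes (94.5%), with the constriction libraries above the controls in 236 of them and below in 124. The smallest two-sided p that an exact permutation test of 2 against 2 libraries can give is 0.333. Among the 21 genes whose groups overlapped, 18 had a higher and 3 a lower mean after transit. With edgeR's quasi-likelihood test and Benjamini-Hochberg adjustment over the 23976 genes of the authors' comparison, 1 gene (0.262%) had an adjusted p-value under 0.05, and 358 genes had an unadjusted p-value under 0.05. With the replicate number as a block, which pairs control and constriction of the same experiment, 86 genes (22.6%) passed, of which 56 (14.7%) were higher and 30 (7.87%) were lower. The block leaves 1 residual degree of freedom per gene, so its spread is borrowed from the other listed genes. Those genes were selected for a difference on the same libraries, so the p-values with the block can be too small. Genes whose groups overlap, such as ATF3, PTGS2 and MT-ND4L, also passed with it, so passing does not show that the libraries of a group were alike. Below, "with the block" gives this second adjusted p-value of edgeR's test.

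The sizes of the differences are given by how well a gene was read. The mean normalised count over the 4 libraries is called the mean level of a gene. The 122 genes with a mean level under 10 had a median log2 fold change of 3.42 where higher and -3.27 where lower. These medians were 1.82 and -1.68 when the 89 of them with 0 reads in a group were set at their bound against a floor of 3 reads per library. The 110 genes between 10 and 100 had medians of 2.19 and -1.98. The 91 genes between 100 and 1000 had medians of 0.91 and -0.77. The 58 genes with a mean of at least 1000 had medians of 0.50 and -0.49, and 47 of them (81.0%) passed with the block. Since a poorly read gene enters the table only with a large difference and a well-read one also with a small one, this order comes from how the genes were selected. Log2 fold changes are differences of log2(mean normalised count + 1), constriction minus control. They understate the change of low genes with reads in both groups. For genes with 0 reads in a group, they are larger than the bound against the floor and so exceed what the reads can show.

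By annotated class, 144 listed genes code for proteins, 96 are pseudogenes of any class, 64 are antisense RNAs and 30 are long intergenic non-coding RNAs. Protein-coding genes were higher in 84 cases and lower in 60. Antisense RNAs were higher in 48 cases and lower in 16. Long intergenic non-coding RNAs were higher in 18 cases and lower in 12. The 8 sense intronic RNAs, which lie in an intron of another gene on the same strand, were all higher in their mean after transit, and so were the 3 miRNA precursors, the 3 snRNA and the 2 snoRNA genes. The 3 mitochondrial tRNAs were all lower in their mean. Protein-coding genes had a median of the mean normalised count of 294, and the other classes together one of 14.8.

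**Figure D1:**
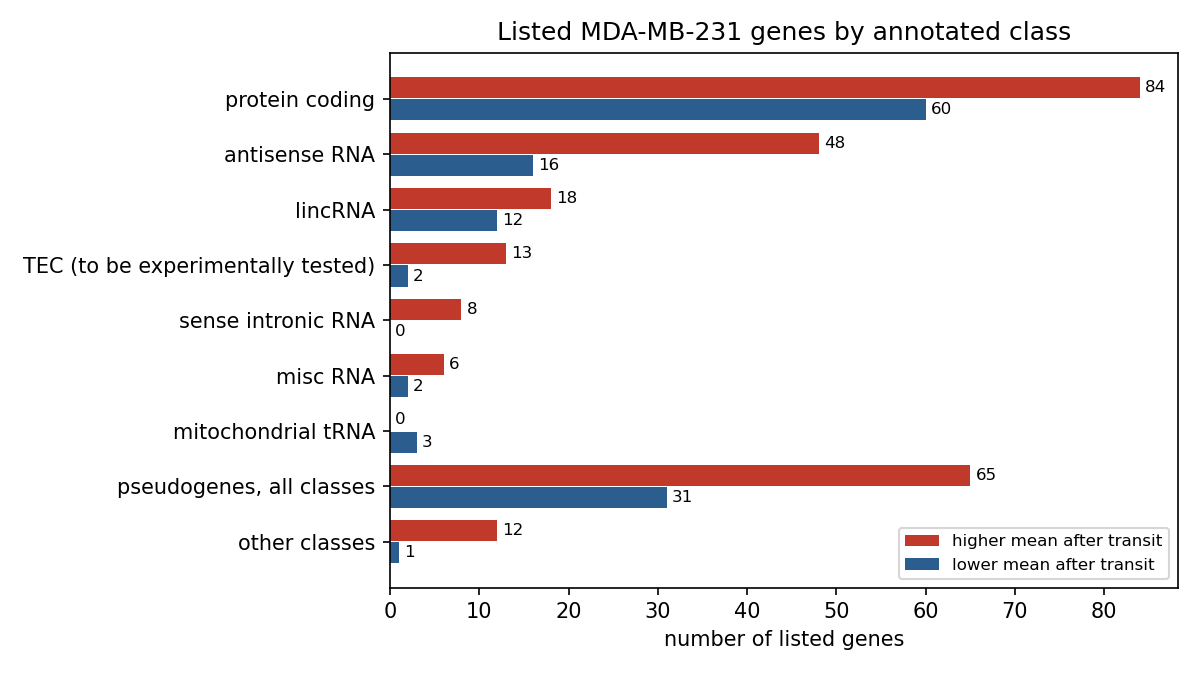
Number of listed MDA-MB-231 genes (x axis, genes) in each annotated class (y axis), with red bars for genes whose mean normalised count was higher after transit and blue bars for genes whose mean was lower. Protein-coding genes split 84 to 60, antisense RNAs 48 to 16 and pseudogenes 65 to 31.

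The best supported difference was that of 7SL, the RNA scaffold of the signal recognition particle, which brings ribosomes with secretory proteins to the endoplasmic reticulum. It is transcribed by RNA polymerase III and has no long poly A tail. Its listed genes include RN7SL2 and RN7SL3. Both are close to AL139099.4, a further annotated gene, to which 98.3% of the RN7SL2 transcript and 97.7% of the RN7SL3 transcript are identical.

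The normalised count of RN7SL2 was 3452 and 2459 after transit, against 228 and 163 in controls. The groups were far apart, with a ratio of 15.1 between the means. RN7SL2 rose by 3.91 on the log2 scale (SE, the standard error from the libraries of each group, 0.34, adjusted p = 0.00845, edgeR's quasi-likelihood test), and it was the only listed gene that passed this test. Its adjusted p-value in edgeR's test was 0.0534 when library totals replaced the size factors. With limma it was 0.370 at a pseudocount of 1 and 0.349 at 0.5, and RN7SL2 did not pass at a pseudocount of 10 either. The log2 fold change was 3.64 without constriction replicate 1 and 4.13 without constriction replicate 2. RN7SL3 had 69 and 58 reads after transit, against 4 and 4 in controls, a log2 fold change of 3.55 with an SE of 0.28, and an adjusted p of 0.00628 with the block. The pseudogenes RN7SL285P, RN7SL431P and RN7SL181P, named after their values were seen, were also listed, and all 5 RN7SL genes were higher with no overlap of the groups, as for 94.5% of all listed genes, by 2.38 to 3.91 on the log2 scale, RN7SL285P with 0 reads in both control libraries. Without constriction replicate 1, RN7SL181P moved from 2.56 to 1.34. The transcripts of RN7SL285P, RN7SL431P and RN7SL181P are 69.7%, 76.1% and 84.5% identical to their closest gene, so they are less alike than RN7SL2 and RN7SL3, whose reads cannot be assigned with certainty.

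MALAT1 and NEAT1 are abundant nuclear long non-coding RNAs from neighbouring genes on chromosome 11 (coordinates are those of GRCh38), the first found in nuclear speckles and the second the scaffold of paraspeckles. MALAT1 (65497688 to 65506516, plus strand) had normalised counts of 11408 and 13742 after transit, against 4128 and 4759 in controls. The groups were well apart, and its log2 fold change was 1.50 with an SE of 0.17, with an adjusted p of 0.226 without and 2.01e-43 with the block. NEAT1 (65422774 to 65445540, plus strand) had 13453 and 11210 after transit, against 16099 and 20100 in controls. It was lower in both constriction libraries, by a log2 fold change of -0.55 with an SE of 0.21 and an adjusted p of 7.48e-08 with the block. These neighbours therefore lay on opposite sides of their controls. Of the 11 genes in the list of abundant non-coding RNAs, these 4 were in the table. Their median log2 fold change was 2.52, against 1.08 over all listed genes (also 1.08 with genes at 0 in a group set at their bound).

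**Figure D2:**
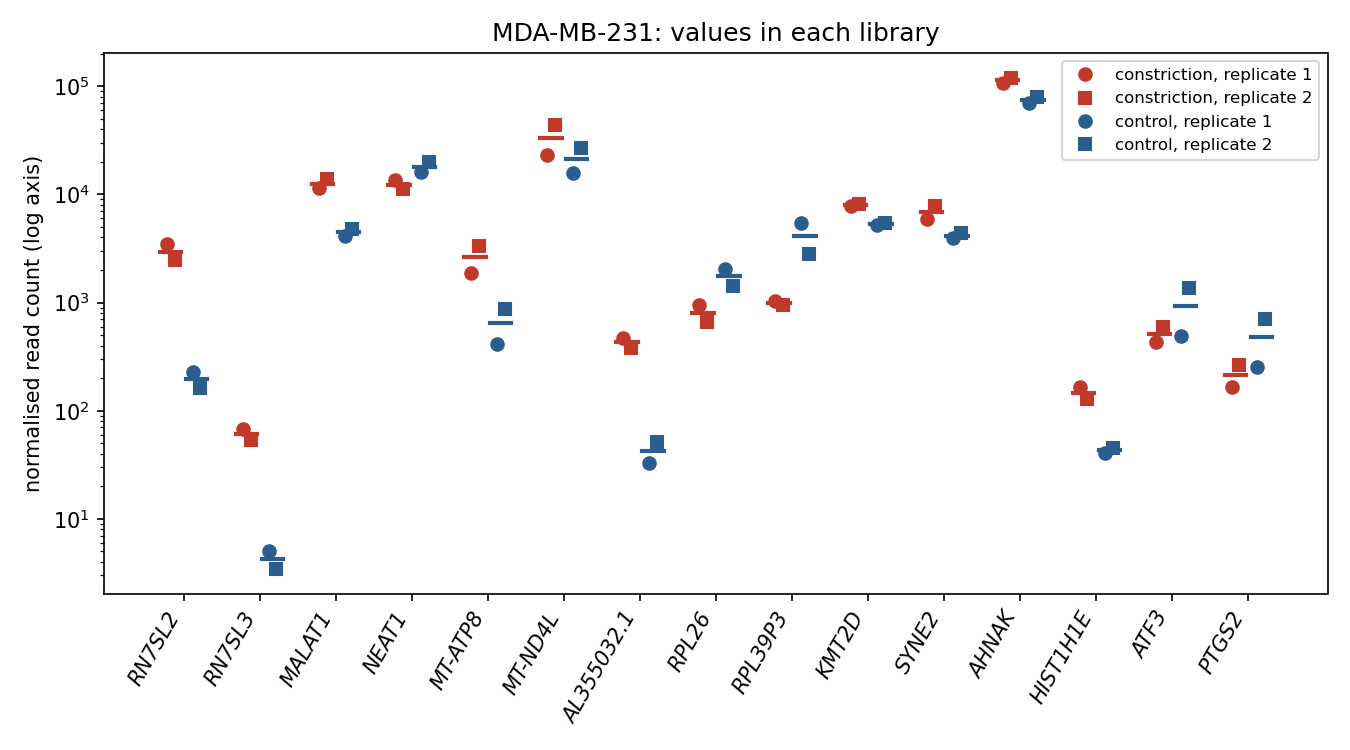
Normalised read count (y axis, log scale) of 15 listed genes (x axis) in each MDA-MB-231 library, red for constriction and blue for control, circles for replicate 1 and squares for replicate 2, with short lines at the group means. The constriction values of RN7SL2, 2459 and 3452, sit above the control values of 163 and 228, while those of ATF3 and PTGS2 overlap their controls.

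Many listed genes lie within the span of another gene without sharing an exon base with it, that is, in its introns. This held for 135 of the 381 genes, and 116 of these (85.9%) had a higher mean after transit. Of the 246 listed genes that do not lie in an intron of another gene, 138 (56.1%) were higher. The 246 include genes whose exons overlap those of another gene. The share was 88.9% for the 90 genes on the opposite strand to the gene around them and 80.0% for the 45 with at least 1 such gene on their own strand. The difference lay among the poorly read genes. With a mean normalised count under 10, 60 of 67 genes in an intron of another gene were higher, against 30 of 55 other listed genes. Between 10 and 100, 46 of 49 were higher, against 40 of 61. Few genes within another gene were read better than this, and there 7 of 13 were higher between 100 and 1000, against 36 of 78, and 3 of 6 at 1000 or more, against 32 of 52. Position was not used to choose the genes, and this is a description of the table with no test. Between 112 and 116 of the 135 genes had a higher mean when any 1 library was left out, a check added after the data were seen. The library preparation is not stated to keep the strand, so reads of such genes and of the introns around them cannot be told apart.

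The low end of this group included genes with no read in one group. In total, 63 genes (16.5%) had 0 reads in both control libraries and 28 (7.35%) in both constriction libraries. The 63 genes had between 17 and 45 reads over both constriction libraries, and 7 of them code for proteins. HSP90AB4P, a pseudogene of an HSP90 chaperone gene inside ADAM10, had 38 and 7 reads after transit and was at least 6.83-fold higher against a floor of 3 reads per library. AF107885.2, an antisense RNA inside TTLL5, had 17 and 28 reads, at least 6.65-fold higher. AC022306.3, inside FAM227B and GALK2, had 36 and 4 reads, at least 6.09-fold higher. AC013549.2, inside TEAD1, had 17 and 23 reads, at least 5.93-fold higher. HSP90AB4P and AC022306.3 rested mostly on constriction replicate 1.

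The 28 genes with 0 reads in both constriction libraries had 14 to 33 reads over both control libraries, and 10 of them code for proteins. NLRP12, a member of the NLR family of innate immune regulators, had 12 and 21 control reads and lay at least 5.84-fold lower in transited cells. GBP5, an interferon-induced GTPase, had 12 and 15 control reads and lay at least 4.93-fold lower. LAMB4, which codes for a laminin subunit, had 12 and 14 control reads and lay at least 4.78-fold lower. CCL5, an inflammatory chemokine, had 1 and 24 control reads and lay at least 3.84-fold lower, a value that rests on control replicate 2. None of these 4 genes passed the test with or without the block.

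Among well-read protein-coding genes, the longest all lay on one side. The 23 listed protein-coding genes with a length of at least 10000 bases and a mean level of at least 1000 all had a higher mean after transit and groups that did not overlap, and 22 of them passed with the block. Over all listed genes, the groups did not overlap for 94.5%, and of all listed genes at this level 81.0% passed with the block. Their log2 fold changes lay in a narrow range, from 0.38 to 0.73 with a median of 0.47. Of the 23 shorter protein-coding genes at the same level, 6 were higher and 17 were lower, with a median of -0.47. Direction did not follow length throughout, since 3 of the 4 genes under 2000 bases were higher, with a median of 0.54. The median length was 18104 bases for the higher and 4465 bases for the lower genes at this level. Over all 144 listed protein-coding genes, it was 5843 and 3999 bases. Over all 381 genes of any class, the order turned, with 1777 bases for the higher and 2071 for the lower genes. The long genes took 0.791% and 0.917% of all reads in control cells and 1.148% and 1.295% after transit. Length here is the summed exon length of a gene, as the table gives it.

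The size of the difference in this class depends on the scaling. Library totals in place of the size factors moved the log2 fold changes of all listed genes by a median of 0.014. TMM factors computed over the listed genes alone take most of these genes to be unchanged, although they were selected for a difference. With these factors, log2 fold changes were lower by a median of 0.390. The 23 long genes then had a median of 0.06, 20 of them were still higher, and 3 kept groups that did not overlap. ASH1L, HUWE1 and TRRAP then had log2 fold changes of -0.03, -0.02 and -0.03. The relation between long and short genes, rather than the absolute change of either, is what these values give. All 23 long genes stayed higher with the size factors when any 1 library was left out.

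**Figure D3:**
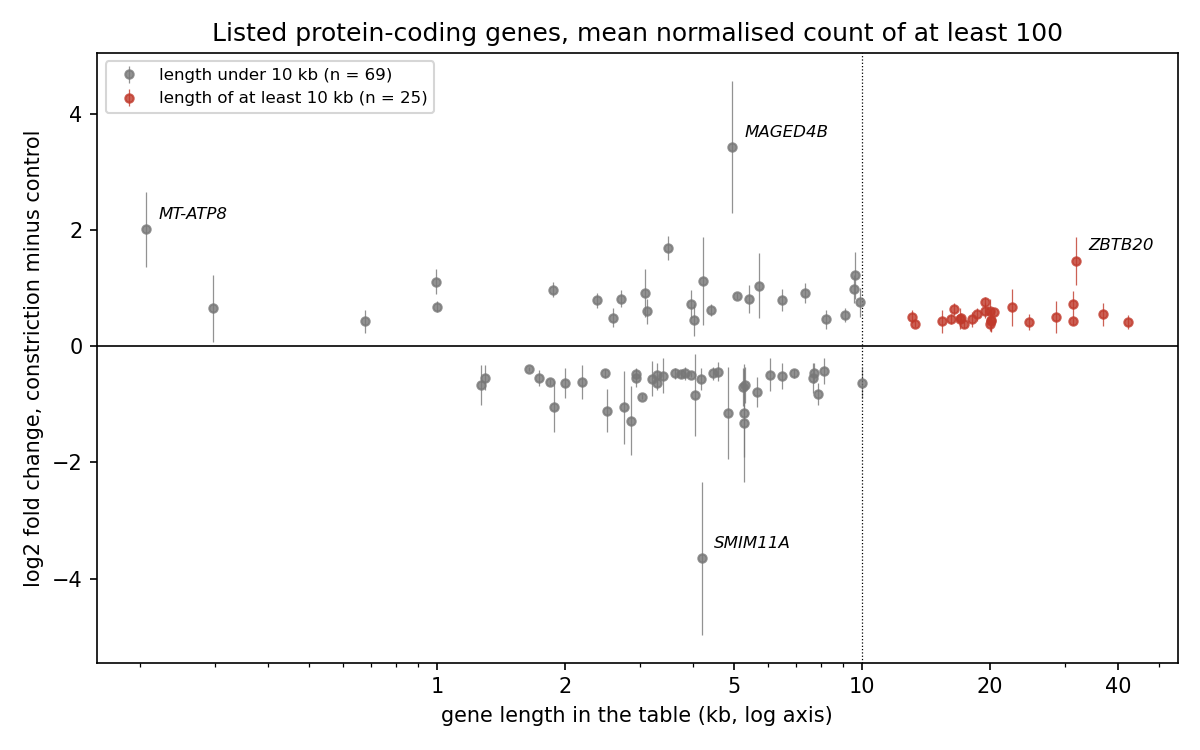
Log2 fold change (y axis, constriction minus control, bars are standard errors from 2 libraries a group) against the gene length in the table (x axis, kb, log scale) for the 94 listed protein-coding genes with a mean level of at least 100. The 25 genes of at least 10 kb, in red, all lie above 0 with the size factors of the table (3 of them lie below 0 with TMM factors of the listed genes), and the 69 shorter genes, in grey, lie on both sides.

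Several of the long genes code for cytoskeletal and nuclear linkers. SYNE2, which codes for nesprin-2, a giant protein of the outer nuclear membrane, had normalised counts of 5916 and 7861 after transit, against 3923 and 4374 in controls. Its log2 fold change of 0.73 (SE 0.22, adjusted p = 1.07e-09 with the block, edgeR) was the largest of the 23. It was the only listed gene of the 32 in the list for the nuclear envelope, lamins and envelope repair. PLEC codes for plectin, which links intermediate filaments to actin, microtubules and nesprins. Its normalised counts were 122268 and 128263 after transit, against 79322 and 101919 in controls, the highest of any listed gene, with a log2 fold change of 0.47, a standard error of 0.18 and a log2 fold change of 0.30 without control replicate 1. DST codes for dystonin, a linker of the same family and the longest listed coding gene at 42341 bases, and had 36320 and 42653 against 28848 and 30520, a log2 fold change of 0.41. PLEC and DST were the listed genes of the 29 for mechanosensing, actin and myosin, and both passed with the block, at adjusted p-values of 7.3e-10 and 3.74e-05.

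AHNAK, a very large scaffold protein at the plasma membrane and in the nucleus, had normalised counts of 106989 and 120199 after transit, against 69519 and 79103 in controls, with a log2 fold change of 0.61 and an SE of 0.13. DYNC1H1, the heavy chain of cytoplasmic dynein, the motor that moves cargo and nuclei along microtubules, had 66207 and 81106 against 45511 and 55412, with a log2 fold change of 0.55 and an SE of 0.20. FAT1, a giant protocadherin, had 51001 and 55985 against 39646 and 37683, a log2 fold change of 0.47. PLEC, AHNAK and DYNC1H1 together took 35.9% and 39.5% of the listed reads in control cells and 42.0% and 42.6% after transit. Further genes of this class, named after their values were seen, were HSPG2, which codes for perlecan of the basement membrane (0.46), the cadherin FAT4 (0.64), and the ubiquitin ligases HERC1 (0.49), HERC2 (0.45), UBR4 (0.41) and RNF213 (0.50, and 0.24 without constriction replicate 2), all values being log2 fold changes.

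Chromatin regulators were found in the same class. Of the 11 genes in the list of H3-K4 methyltransferases, which methylate histone H3 at promoters and enhancers, 4 were listed, and all 4 were higher with groups that did not overlap, as for 94.5% of all listed genes. With the TMM factors above, their log2 fold changes were -0.03 for ASH1L, 0.02 for KMT2A, 0.03 for KMT2C and 0.17 for KMT2D. KMT2D had normalised counts of 7782 and 8123 after transit, against 5217 and 5416 in controls, a log2 fold change of 0.58 (SE 0.04, adjusted p = 1.11e-06 with the block, edgeR). KMT2A had 7880 and 8562 against 6144 and 6053, a log2 fold change of 0.43 with an adjusted p of 0.00173 with the block. KMT2C had 6013 and 7447 against 4655 and 5257, a log2 fold change of 0.44 with an adjusted p of 0.00286 with the block, and its log2 fold change was 0.28 without constriction replicate 2. ASH1L had 5204 and 4868 against 3941 and 3808, a log2 fold change of 0.38, and did not pass with the block, at an adjusted p of 0.053. All 4 genes are between 13296 and 31305 bases long, and long genes of other functions differed by similar amounts. The median of the 4 genes was 0.44, against 0.47 for the 23 long genes.

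Of the 45 other chromatin regulators in a second list, HUWE1 and TRRAP were listed. HUWE1, a ubiquitin ligase whose substrates include histones, had 33898 and 36726 against 26711 and 27488, a log2 fold change of 0.38. TRRAP, a scaffold of histone acetyltransferase complexes, had 8855 and 10181 against 6977 and 7654, also a log2 fold change of 0.38. The deposited GO lists for this cell line name 12 genes in all, of which 9 were higher and 3 lower, and 5 passed with the block. Of all listed genes, 66.7% were higher and 22.6% passed. Their authors chose these terms on the same libraries, so they are not independent evidence of a direction. Beside the 4 methyltransferases they include TNRC6B, a scaffold of miRNA silencing, with 1701 and 2163 against 1156 and 1399 and a log2 fold change of 0.60. CNTN2, a neural adhesion molecule, had 14 and 23 reads after transit, against 0 and 2 in controls. UNC13A, a protein of synaptic vesicle priming, had 11 and 6 reads after transit, against 18 and 53 in controls. Reads of both were few, and neither passed with the block.

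Histone genes did not move as 1 group. HIST1H1E, a linker histone H1 gene on chromosome 6 (26156354 to 26157107), had normalised counts of 166 and 128 after transit, against 40.6 and 45.6 in controls. The log2 fold change of this gene was 1.75 with an SE of 0.20, and an adjusted p of 0.0376 with the block. HIST1H4A, a histone H4 gene of the same cluster, had 38 and 27 reads after transit, against 2 and 3 in controls. HIST1H4I, a further H4 gene, had 482 and 628 against 750 and 868, a log2 fold change of -0.54. The histone pseudogene H3F3AP4, whose sequence is identical to part of H3F3A, had 353 and 438 against 586 and 586, a log2 fold change of -0.57. HIST1H4A, HIST1H4I and H3F3AP4 did not pass with the block.

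Immediate early and feedback genes, which are switched on within minutes of a stimulus and were represented by a list of 48, had 5 listed members, of which 4 had a lower mean after transit and 1 a higher one. ATF3, a stress-induced transcription factor, had normalised counts of 434 and 597 after transit, against 490 and 1351 in controls. The groups overlapped, and its log2 fold change of -0.84 (SE 0.71) became 0.07 without control replicate 2. CSRNP1, a nuclear protein induced by growth signals, had 962 and 928 against 1108 and 1677, a log2 fold change of -0.56, which was -0.23 without control replicate 2. SGK1, a kinase induced by serum, had 889 and 1167 against 1403 and 1798, a log2 fold change of -0.64. ATF3, CSRNP1 and SGK1 passed with the block, at adjusted p-values of 0.00802, 0.0415 and 0.00132. EGR2, a zinc finger transcription factor, had 5 and 5 reads after transit, against 13 and 40 in controls, and ARC, the exception in direction, had 115 and 23 reads against 20 and 15. The groups of ARC overlapped, and its log2 fold change of 1.75 became 0.14 without constriction replicate 1. Neither EGR2 nor ARC passed with the block.

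In each of these 4 lower genes, control replicate 2 was the highest of the 4 libraries. PTGS2, which codes for the inducible cyclooxygenase and was the only listed gene of 23 NF-κB targets, had the same form, with 165 and 265 after transit, against 252 and 703 in controls. Its groups overlapped, and its log2 fold change was -1.15 with all libraries (adjusted p = 0.00286 with the block, edgeR) and -0.23 without control replicate 2. SIK1, a salt-inducible kinase named after its values were seen and near identical to SIK1B, had 93.8 and 139 after transit, against 92.6 and 492 in controls, and its log2 fold change was 0.33 without control replicate 2. CCL5 was the only listed gene of 27 interferon targets, with the reads given above. None of the 10 genes of the cGAS and STING pathway, 21 epithelial markers, 25 mesenchymal markers, 19 genes of the p53 and DNA damage response, 15 genes of the heat shock and unfolded protein response or 16 proliferation genes was in the table. That a gene is not listed says only that the authors' comparison did not give it an unadjusted p-value under 0.05 in these libraries.

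Mitochondrially encoded genes are transcribed as long precursors that are cut at tRNAs and then polyadenylated. Of the mitochondrial genes, 5 were listed. MT-ATP8, a subunit of ATP synthase, had normalised counts of 1895 and 3327 after transit, against 415 and 881 in controls, so that the groups were apart but the libraries of each group were not close. Its log2 fold change was 2.01 with an SE of 0.65 and an adjusted p of 1.32e-38 with the block. MT-ND4L, a subunit of complex I, had 22934 and 43448 against 15783 and 26608. Its groups overlapped, and its log2 fold change was 0.65 with all libraries and 0.11 without constriction replicate 2. It was the listed gene with the highest level per length, with a mean FPKM of 2427 after transit, against 1535 in controls.

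Both genes share bases with a neighbour, MT-ND4L 7 bases with MT-ND4 and MT-ATP8 46 bases with MT-ATP6. The sequence of MT-ATP8 (mitochondrial chromosome, 8366 to 8572, plus strand, GRCh38, from GENCODE 29) is shown because its count depends on where a read falls. Its first 161 bases are not shared with MT-ATP6, and the capitals mark the 46 bases that are. MT-ATP6 is not in the table. Over all its 207 bases, MT-ATP8 is also 97.6% identical to MTATP8P1, a further annotated gene, so its reads cannot be assigned with certainty.

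MT-ATP8: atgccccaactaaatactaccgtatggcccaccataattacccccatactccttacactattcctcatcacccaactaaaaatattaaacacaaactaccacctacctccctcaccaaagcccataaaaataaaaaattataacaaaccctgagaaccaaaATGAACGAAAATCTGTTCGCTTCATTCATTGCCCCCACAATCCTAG

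The mitochondrial tRNAs in the table were lower in both constriction libraries than in both control libraries. MT-TH, the tRNA for histidine, had normalised counts of 168 and 162 after transit, against 273 and 310 in controls, a log2 fold change of -0.82. MT-TG, the tRNA for glycine, had 31.3 and 12.9 against 59.6 and 102, a log2 fold change of -1.83. MT-TT, the tRNA for threonine, had 8.79 and 9.24 against 34.3 and 56.8, a log2 fold change of -2.22. None of these tRNAs passed with the block. The listed mRNAs of the mitochondrial genome thus had higher means and the listed tRNAs lower means.

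Pseudogenes named after ribosomal protein genes (symbols starting with RPL or RPS) gave 13 listed genes, of which 6 were higher and 7 lower, with a median log2 fold change of -0.56, and 6 passed with the block, as did 22.6% of all listed genes and 31.9% of those with a mean level between 100 and 1000. Listed coding genes of the ribosome included RPL26 and RPL30, which went opposite ways. RPL26 had normalised counts of 954 and 661 after transit, against 2057 and 1437 in controls, a log2 fold change of -1.11 (SE 0.37, adjusted p = 8.78e-12 with the block, edgeR). RPL30 had 13122 and 9890 against 9520 and 7274, a log2 fold change of 0.45 and an adjusted p of 0.000167 with the block. This fold change was 0.24 without constriction replicate 1 and 0.27 without control replicate 2.

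These pseudogenes are copies of spliced mRNAs, whose reads are uncertain because short reads can also come from the parent mRNA. The most abundant, RPL39P3 on chromosome 6 (73373108 to 73373263, minus strand), had normalised counts of 1029 and 941 after transit, against 5414 and 2810 in controls. The difference was a log2 fold change of -2.06 with an SE of 0.46, and its adjusted p was 0.614 without and 2.02e-43 with the block. The pseudogene AL355032.1 on chromosome 14 (101677943 to 101678380, plus strand) is a copy of RPL26 that is not among the 13 because of its symbol, and its normalised counts of 474 and 381 after transit, against 33.0 and 51.6 in controls went the other way from those of RPL26. For this pseudogene the log2 fold change was 3.31 with an SE of 0.35, and its adjusted p was 0.101 without and 7.89e-22 with the block. The sequences show how little separates these pseudogenes from their parents. RPL39P3 has no difference from an RPL39 transcript over its 156 bases. AL355032.1 differs from RPL26 at 12 of 438 bases, and the stretch from base 28 to base 177 is printed with the 6 of these that fall in it in capitals.

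RPL39P3: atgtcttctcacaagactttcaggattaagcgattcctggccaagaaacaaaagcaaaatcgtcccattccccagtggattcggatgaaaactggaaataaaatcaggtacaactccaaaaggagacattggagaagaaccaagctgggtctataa
AL355032.1: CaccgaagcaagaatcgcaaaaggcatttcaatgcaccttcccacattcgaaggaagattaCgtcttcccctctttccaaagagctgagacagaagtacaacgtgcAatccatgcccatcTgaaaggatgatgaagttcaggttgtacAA

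Over the whole table, 71 genes (18.6%) had at least 90% of their transcript identical to another gene, 40 of them higher and 31 lower. Pseudogenes of any class with a mean level of at least 100 were lower in 21 cases and higher in 12, with a median log2 fold change of -0.57. Examples are EEF1A1P5 and EEF1A1P6, near copies of the elongation factor gene EEF1A1. EEF1A1P5 had 16293 and 13026 against 20449 and 18449, a log2 fold change of -0.41, which was -0.26 without constriction replicate 2. EEF1A1P6 had 1156 and 954 against 1950 and 1855, a log2 fold change of -0.85. TMSB4XP8, a near copy of the thymosin β4 gene TMSB4X, had 1800 and 1792 against 4088 and 3131, a log2 fold change of -1.01. All of these passed with the block. HSP90AA2P, a near copy of the chaperone gene HSP90AA1, had 181 and 166 against 452 and 309, a log2 fold change of -1.13. Among the other ribosomal pseudogenes, RPL21P75 (-1.28), RPL41P5 (-1.18), RPL9P7 (-0.91), RPL10P9 (-0.62), RPL21P16 (-0.59) and RPL14P1 (-0.56) had lower means. RPSAP15 (0.61), RPL24P4 (0.71) and RPSAP47 (0.84) had higher means, all as log2 fold changes. The groups of RPSAP15 overlapped, and its value was 0.21 without constriction replicate 1 and 0.35 without control replicate 2. Without constriction replicate 2, RPL10P9 had -0.39 and RPL21P16 had -0.33. The pseudogenes RPL35AP25, RPL36AP33 and RPS20P15 had 0 reads in control cells.

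The largest further differences among genes with a mean level of at least 100 and groups that did not overlap were uneven between libraries in a few cases. MAGED4B, of the MAGE family of cancer-testis genes and close to identical to MAGED4, had normalised counts of 81.1 and 466 after transit, against 15.2 and 33.5 in controls. A log2 fold change of 3.43 was found with all libraries and one of 1.69 without constriction replicate 2. SMIM11A, a small membrane protein gene with an identical copy named SMIM11B, had 18.6 and 9.24 after transit, against 348 and 24.9 in controls. With all libraries its log2 fold change was -3.65, and it was -0.80 without control replicate 1. ZNF460, a zinc finger gene, had 366 and 293 against 92.6 and 110, a log2 fold change of 1.69 with an SE of 0.20. ZBTB20, a transcriptional repressor gene of 31872 bases, had 222 and 348 against 83.7 and 121, a log2 fold change of 1.47. Other higher genes of this kind were the antisense RNAs AL355312.3 (1.97) and AC090673.1 (1.92) and the keratin pseudogene KRT87P (1.74). Other lower genes were the antisense RNAs AC245140.2 (-1.51) and AC112907.3 (-1.17), which overlap RPL10 and EIF4A2, the annexin gene ANXA8L1 (-1.28) and the transporter gene SLC16A12 (-1.15), all as log2 fold changes. Without constriction replicate 1, ANXA8L1 moved to -0.80 and SLC16A12 to -0.53. Without constriction replicate 2, SLC16A12 moved to -2.24 and ANXA8L1 was also lower than with all libraries.

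LM2 was derived from MDA-MB-231, and its libraries were not used to choose the MDA-MB-231 genes. The LM2 table, however, holds only genes with an unadjusted p-value under 0.05 in the authors' comparison of LM2. Genes in both tables were therefore selected in both lines, and their values in LM2 are no independent check. The tables of both lines held 12 genes in common, 3.15% of the MDA-MB-231 table and 12.4% of the LM2 table. All 12 had the same direction in their means, and the groups did not overlap in either line for 9 of them. Over its own table, the groups did not overlap for 82.5% of the genes in LM2. HIST1H4A, the histone H4 gene, had 15 and 18 reads after transit, against 2 and 1 in controls of LM2, a log2 fold change of 2.94 beside 3.17 in MDA-MB-231. HIST1H1E had a log2 fold change of 3.16 in LM2, with normalised counts of 89.1 and 95.4 against 1.76 and 17.2, and one of 5.08 without control replicate 2. RPL26 had -1.19 in LM2 and -1.11 in MDA-MB-231, and RPL39P3 had -1.56 and -2.06. EEF1A1P6 had -0.86 and -0.85, and -0.55 in LM2 without control replicate 1. ATF3, whose groups overlapped in MDA-MB-231, had 715 and 554 after transit against 1591 and 816 in LM2, a log2 fold change of -0.92, which was -0.36 without control replicate 1. AL355032.1, the copy of RPL26, had 2.36 in LM2 and 1.39 without constriction replicate 1 of that line, beside 3.31 in MDA-MB-231. Leaving out LM2 libraries was chosen after the data were seen.

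The shared genes TMEM238, AP000866.6 and TYRO3P, of which the last is a pseudogene of the receptor kinase gene TYRO3, had log2 fold changes of 1.11, 1.14 and 2.38 in LM2 and of 0.68, 0.96 and 2.71 in MDA-MB-231. Without constriction replicate 1 of LM2, AP000866.6 had 0.52 and TYRO3P 1.31 in that line, and without constriction replicate 2 of MDA-MB-231, AP000866.6 had 0.45 there. TMEM238 had normalised counts of 170 and 425 after transit, against 123 and 152 in controls of LM2, and its log2 fold change in LM2 was 0.31 without constriction replicate 2. RN7SL2 and MT-ATP8 overlapped between the groups in LM2, where constriction replicate 1 alone was high. RN7SL2 had 1671 and 144 after transit, against 201 and 79.7 in controls of LM2, and MT-ATP8 had 3161 and 775 against 492 and 838. Without that library their log2 fold changes in LM2 were 0.04 and 0.22. In MDA-MB-231, both constriction libraries were high for both genes. The second LM2 constriction library carries conflicting replicate numbers in its labels, which does not change its group. The lines were normalised separately, and no test of the difference between them was made.

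**Figure D4:**
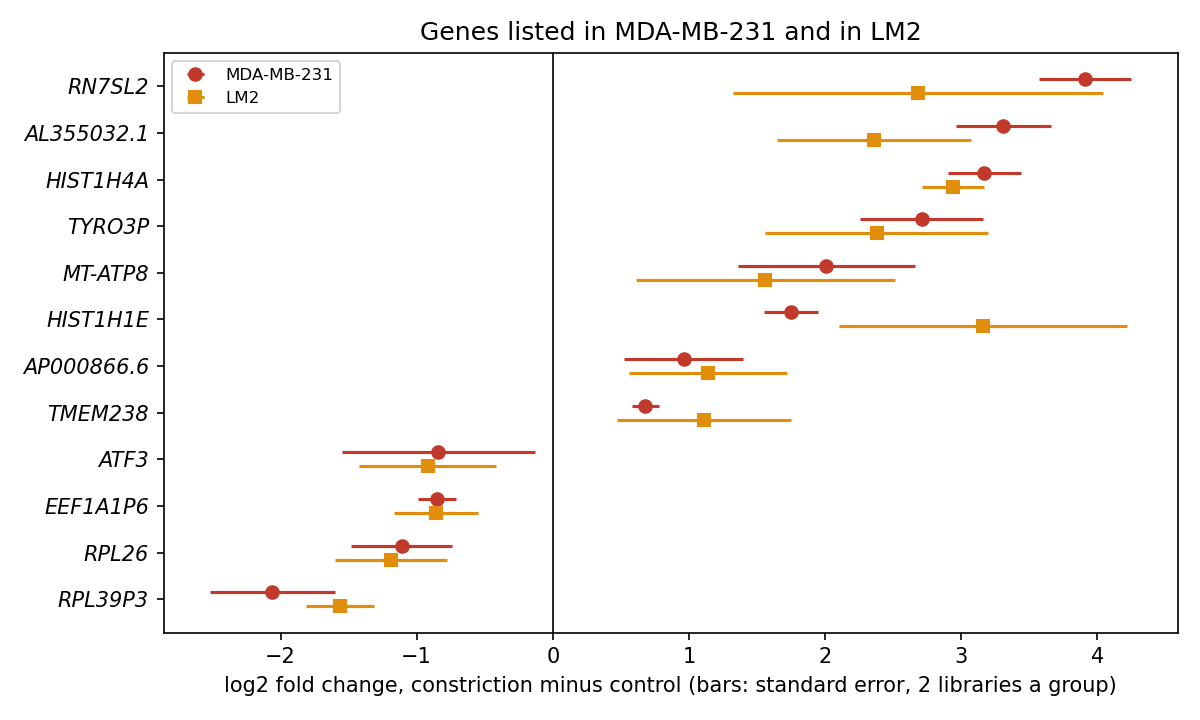
Log2 fold change (x axis, constriction minus control, bars are standard errors from 2 libraries a group) of the 12 genes listed in both MDA-MB-231 (red circles) and LM2 (orange squares). All 12 genes lie on the same side of 0 in both lines, and the bars are widest in LM2 for RN7SL2, HIST1H1E and MT-ATP8.

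MCF-10A shared 48 genes with MDA-MB-231, 12.6% of its table and 1.79% of that of MCF-10A. Of these, 20 had the same and 28 the opposite direction in their means. The groups did not overlap in either line for 26 of the 28 and for 18 of the 20. Over all listed genes of MCF-10A, they did not overlap for 96.8%. The MCF-10A table is mostly of lower genes, 2533 of 2680 (94.5%), and 2402 of its genes (89.6%) had 0 reads in both constriction libraries. This held for 27 of the 28 genes, all but SMIM11A, so that the opposite direction mostly restates that these genes were higher in MDA-MB-231. Most of the lower genes among the 20 also had 0 reads in both constriction libraries of MCF-10A. The higher genes among the 20 all had their highest count in constriction replicate 1 of that line. RN7SL2 had normalised counts of 1589 and 52.8 after transit, against 94.0 and 49.0 in controls of MCF-10A, so its groups overlapped. Its log2 fold change there was 3.50 with all libraries and -0.43 without constriction replicate 1. The long protein-coding genes could not be compared in this way, since 0 genes in the LM2 table and 0 in the MCF-10A table were protein-coding with a length of at least 10000 bases and a mean level of at least 1000.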

How the data were processed

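RNA sequencing of MDA-MB-231 cells was analysed in 4 libraries, with the LM2 and MCF-10A tables used for comparison. The authors filtered reads with fastp, aligned them to GRCh38 with HISAT2 2.0.5 and counted them with featureCounts 1.5.0-p3, and deposited the counts. Division by DESeq2 1.20.0 size factors within each line made the normalised counts (a signal) that the authors deposited, beside FPKM. The deposited fold changes (log2) and adjusted p-values of the authors were not used, except that their p-values and adjusted p-values gave the selection threshold and the number of genes adjusted over. The deposited lists of GO terms were used for their member genes only, and not for the ratio of members they give. Whether libraries were directional is not given in the sources used here.

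Counts were tested with edgeR 4.0.16 (quasi-likelihood, two-sided, size factors of the tables), adjusted over 23976 genes with unlisted genes at a p-value of 1, and called at an adjusted p-value under 0.05. Alternatives were limma 3.58.1, DESeq2 1.42.0, other scalings, a filter and each library left out. Replicate numbers were taken as pairs because the study lists control and constriction together per replicate experiment. Deviations from the group mean correlated between same-numbered libraries with an r of 0.0827 over 381 genes and 0.1587 over the 259 whose mean normalised count was at least 10. The fits were tested on simulated data. Coordinates of all 381 genes matched GENCODE 29, and sequences and near copies come from its transcripts (BLAST). Named genes are the called gene, listed members of the gene lists and GO terms, genes shared with LM2, the 8 largest rises and 8 largest falls whose mean normalised count was 100 or more and whose groups did not overlap, the 5 highest by FPKM and by normalised count, the 5 longest coding genes, and 4 genes without reads in each group. Genes and lists were chosen with earlier results of these data known. A listed gene and the sequences of further genes are not reported here.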

Additional observations from a re-analysis of the deposited data

Results flagged for a closer look

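SMIM11A had both constriction libraries below both control libraries in MDA-MB-231, with a log2 fold change of -3.65, and both constriction libraries above both control libraries in MCF-10A, with a log2 fold change of 3.85. The difference between the lines was not tested, because their tables were normalised separately. In MDA-MB-231 the value rests on control replicate 1 (normalised count 348, against 24.9 in control replicate 2), and in MCF-10A on constriction replicate 1 (1143, against 86.9 in constriction replicate 2). The gene has an identical copy, SMIM11B, so its reads are uncertain.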

How the results depend on the processing

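The number of called genes, 1 in edgeR's test, depended on the setting. It was 0 with limma at pseudocounts of 1, 0.5 and 10 (245, 245 and 261 genes at an unadjusted p-value under 0.05) and 0 with library totals in place of size factors (337), 2 with a minimum mean normalised count of 10, 9 with DESeq2, 17 with TMM factors of the listed genes and 86 with the replicate block. It ran from 0 to 8 when 1 library was left out, with 0 without either constriction library (270 and 285 at an unadjusted p-value under 0.05), 7 without control replicate 1 and 8 without control replicate 2. In these fits the lone library is assumed to vary like the other group. With the newer dispersion estimate and with adjustment over all annotated genes it stayed 1. The numbers of lower genes (95 to 130), of genes whose groups do not overlap (248 to 360) and of genes with no read in one group stayed within 1.5 times their value. The log2 ratio of the median length of higher to that of lower genes was -0.22 over all genes, 0.55 for protein-coding genes and 0.40 with a minimum mean normalised count of 10. Among genes named by the rule, directions turned for ASH1L, HUWE1 and TRRAP with TMM factors (log2 fold changes of -0.03, -0.02 and -0.03, adjusted p = 1.00 for each in edgeR's test) and for ATF3 without control replicate 2 (0.07, within a range from -1.39 to 0.07 over the libraries left out, with adjusted p-values from 0.128 to 1.00 in edgeR's test). SIK1, named outside the rule, also turned without control replicate 2 (0.33). Of the other values of named genes, 498 log2 fold changes moved by less than their standard error and 114 by more. With 2 libraries a group, leaving out 1 library moves the mean of its group by the standard error of that mean. For the libraries left out, these numbers were therefore largely fixed in advance and are no measure of stability. Of their adjusted p-values, 979 kept their side of the threshold, 78 passed it and 6 lost it, all 6 of RN7SL2. Genes with under 10 reads a library cannot be resolved at this depth with 2 libraries a group.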
